A study of Daphnia magna with 20 samples.

Results

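The enzymes that split glucose, burn pyruvate in the citrate cycle and store or release glycogen were followed in whole water fleas (Daphnia magna) after a chronic particle exposure. They were taken as the rows of the expression table whose name holds the word of one of these enzymes (hexokinase, aldolase, pyruvate, isocitrate, glycogen and the like) or opens with eno/, which gave 63 of 7784 names. Of these, 13 belong to glycolysis including lactate dehydrogenase, 12 to the entry of pyruvate into mitochondria and the return to glucose, 16 to the citrate cycle and 7 to glycogen. A further 15 share a word with these enzymes but act in other pathways, and are kept apart below as other names.

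The 20 libraries fall into 4 groups of 5. The nano_high group received 2.3e12 particles per litre of ethylene acrylic acid copolymer, a polyethylene-type plastic, and the nano_low group received 2.3e11 particles per litre of the same copolymer. The silica group received 2.3e12 of fumed silica, a mineral particle, and the control group received the vehicle. All groups were kept for 21 days in renewed water and fed algae and a yeast mixture, with 1 daphnid in each vessel at the start. The stage label, newborn animals under a day of age, can only describe the start of such a test. Each library holds RNA of pooled whole daphnids, so a lower value can mean fewer cells of a type or less RNA in each, and these cannot be told apart. How many separate cultures stand behind the 5 libraries of a group is not given. The p-values of the main fit set a group difference against the spread between libraries, estimated from all 20 together. That spread may be technical in part.

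Glycolysis cuts glucose into pyruvate in the cytosol. Pyruvate enters mitochondria through a carrier, becomes acetyl-CoA through the pyruvate dehydrogenase complex and is oxidised in the citrate cycle, or becomes oxaloacetate through pyruvate carboxylase. Glycogen is the animal store of glucose: glycogenin starts the polymer, glycogen synthase lengthens it, and glycogen phosphorylase with the debranching enzyme takes it apart. Animals short of oxygen, water fleas among them, turn pyruvate into lactate through lactate dehydrogenase.

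The libraries held 39087882 to 95906857 counts in nano_high, 9689064 to 40227246 in nano_low, 7912434 to 54862334 in silica and 11918440 to 26562258 in control, so every nano_high library was deeper than every control library, and the part of depth in the results was not tested. Over all tested names, the first principal component of log2 CPM (counts per 1000000 of the scaled library total) held 38.9% of the variance. Of the 20 libraries, 5 lay below -30 on it: nano_high 4 and 5 (-53.2 and -33.6), nano_low 1 (-55.1), and control 4 and 5 (-54.0 and -55.2). No silica library did (12.4 to 39.9). Genes of muscle, where much of an animal's glycolysis takes place, were checked with a list of 14 names, 13 of them detected and 1, tropomyosin invertebrate, at 0 in all libraries. Their summed level was 14290 to 24440 CPM in nano_high, 10718 to 24291 in nano_low, 17449 to 24485 in silica and 11797 to 21385 in control. The 5 libraries below -30 on the first component had the 5 lowest muscle sums. These were 10718 CPM in nano_low 1, 11797 in control 4, 13585 in control 5, 14290 in nano_high 5 and 14440 in nano_high 4. The next was control 2 at 15045 CPM. That component was computed with the detected muscle names included. No muscle name was called in any comparison, and the list's median log2 fold change was 0.18 in nano_high, 0.26 in nano_low and 0.27 in silica, each against control, -0.13 in nano_high against nano_low and -0.22 in nano_high against silica. The 66 cuticle and matrix names summed to 12669 to 20969 CPM in nano_high, 8210 to 26366 in nano_low, 14854 to 31088 in silica and 10642 to 21898 in control. For yolk and germline (4 names) the sums were 20151 to 139917 CPM in nano_high, 14146 to 62011 in nano_low, 9939 to 27907 in silica and 27167 to 79662 in control. The 23 gut digestion names summed to 10888 to 15102 CPM in nano_high, 10066 to 15095 in nano_low, 10333 to 16344 in silica and 13071 to 18742 in control, and the 3 blood names to 2133 to 6302, 2700 to 5017, 2602 to 3876 and 3277 to 4751 CPM in the same order. In nano_high against control 3 gut digestion names and 1 yolk and germline name were called, and no name of these 4 lists in any other comparison. In silica against control the median log2 fold change was -0.96 for yolk and germline, 0.65 for cuticle and matrix, -0.25 for gut digestion and -0.07 for blood, and in nano_high against silica 0.75, -0.42, -0.13 and 0.09. In nano_high against control these medians were -0.22, 0.02, -0.16 and 0.07, and in nano_low against control -0.40, 0.40, -0.33 and 0.16. The part of these lists in the enzyme values was not tested.

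Of the 63 enzyme names, 62 passed the filter on low values (5 or more libraries at a value of 1 or above) and 58 averaged at least 1 CPM. The name left out was malate dehydrogenase/arp2_g1187, at means of 0.0306 CPM in nano_high, 0.00797 in nano_low, 0.0253 in silica and 0.0177 in control. Another 4 were tested at means below 1 CPM: fructose aldolase/arp2_g716, pyruvate kinase/arp2_g1116, mitochondrial malate dehydrogenase/arp2_g4290 and nadp-specific isocitrate dehydrogenase/arp2_g774. Names that share a description may share reads or may have been summed, so a value belongs to the name and is uncertain as to the gene copy.

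Among the 58 names, the highest library stood 1.37-fold to 34.4-fold above the lowest, with a median of 2.09-fold. The SD of log2 CPM over the 20 libraries had a median of 0.32 in these enzymes, beside 0.29 over all 7044 names of at least 1 CPM. By role the median SD was 0.35 for glycolysis, 0.32 for the pyruvate steps, 0.28 for the citrate cycle, 0.32 for glycogen and 0.26 for the other names. The least variable name was low-specificity l-threonine aldolase (SD 0.12), which cleaves an amino acid, and the most variable was eno/arp2_g1214 (SD 1.18).

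Part of this spread lay between libraries of the same group. The median centred log2 CPM over all enzyme names ran from -0.37 in nano_high 5 to 0.14 in nano_high 3, from -0.35 in nano_low 1 to 0.30 in nano_low 2 and nano_low 4, from 0.04 in silica 3 to 0.39 in silica 1, and from -0.25 in control 4 to 0.18 in control 3. Silica 1 was the highest library for 22 of the 58 names, and nano_low 1 was the lowest for 17, nano_high 5 for 8 and control 4 for 7. Silica 1 and nano_low 1 lay at 39.9 and -55.1 on the first component of all names, and these counts were not made over all names. The 5 libraries at the negative end of the first component were also the 5 with the lowest median for all enzyme names, which is a description, since that component was computed with these names included. Glycolysis reached -0.70 and the citrate cycle -0.52 in nano_low 1, while glycogen stood at -0.08 there.

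**Figure D1:**
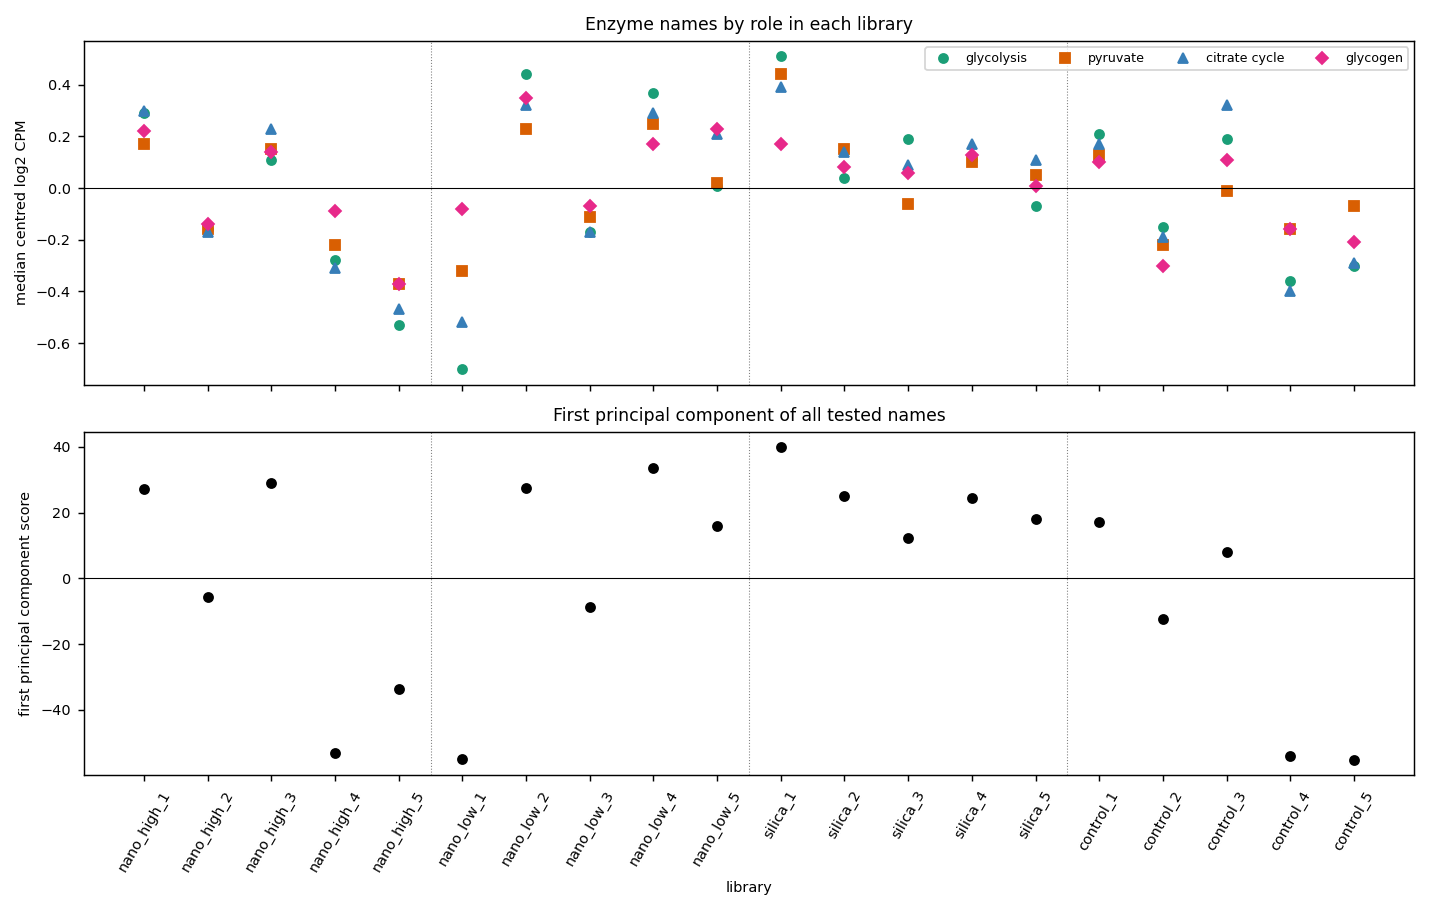
The upper panel plots, for each of the 20 libraries, the median log2 CPM (each name centred on its mean over the libraries) of the glycolysis, pyruvate, citrate cycle and glycogen names, and the lower panel the score of the library on the first principal component of all tested names. Glycolysis runs from -0.70 in nano_low 1 to 0.51 in silica 1, and the 5 libraries below -30 in the lower panel are the 5 lowest for glycolysis and for the citrate cycle, but not for glycogen or the pyruvate names.

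The question put by the design was which transcripts differ under the copolymer at each concentration and under silica. Every name's log2 fold change was tested by edgeR (quasi-likelihood), p-values were adjusted over all 7564 tested names after Benjamini and Hochberg, and a name is called here where the adjusted p is under 0.05. Calls by edgeR are those of the fit to all 20 libraries with no covariate, and a call from another fit is named as such. In nano_high against control, 7 of the 62 enzymes were called, 3 higher and 4 lower, or 11.3%, beside 10.1% of all tested names (5.17% higher and 4.89% lower), so the share was near that of the whole table. Their median log2 fold change was 0.00, and that of all names was 0.02. The called names were the eno name of glycolysis, the pyruvate carrier, pyruvate carboxylase and a phosphatase that activates pyruvate dehydrogenase. The rest were the NADP-linked isocitrate dehydrogenase, a kinase of glycogen synthase and, from the other names, an aldolase of deoxyribose breakdown. At an unadjusted p under 0.05 there were 10 enzymes, beside 24.8% of all names, and DESeq2 and limma-voom called 8 each, beside 15.2% and 11.3% of all names. Library values did not overlap between nano_high and control for 6 of the 62 enzymes, beside 8.82% of all names.

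In nano_low against control no enzyme was called by the edgeR quasi-likelihood test, beside 0.621% of all names. At an unadjusted p under 0.05 there were 9, beside 14.1% of all names, and 1 was called by DESeq2 (3% of all names) and 1 by limma-voom (0.939%). Groups did not overlap for 2 enzymes there, beside 2.62% of all names. In silica against control none was called either (0.701% of all names), 16 had an unadjusted p under 0.05 (23.2% of all names), and DESeq2 called 4 (5.27%) and limma-voom 0 (0.635%). Groups did not overlap for 5 enzymes, beside 8.65% of all names. In nano_high against nano_low none was called by edgeR, DESeq2 or limma-voom, and 3 had an unadjusted p under 0.05 (6.76% of all names). Over all names that comparison had 0% called by edgeR and by limma-voom and 0.0529% by DESeq2, and groups did not overlap for 2 enzymes, beside 1.16% of all names. In nano_high against silica 7 enzymes were called, 3 higher and 4 lower, or 11.3%, beside 5.35% of all names (2.37% higher and 2.99% lower), and 10 did not overlap between the groups, beside 7.76% of all names. There 19 had an unadjusted p under 0.05 (25.2% of all names), DESeq2 called 12 (12.1%) and limma-voom 7 (5.55%). Both comparisons with calls share the nano_high libraries.

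**Figure D2:**
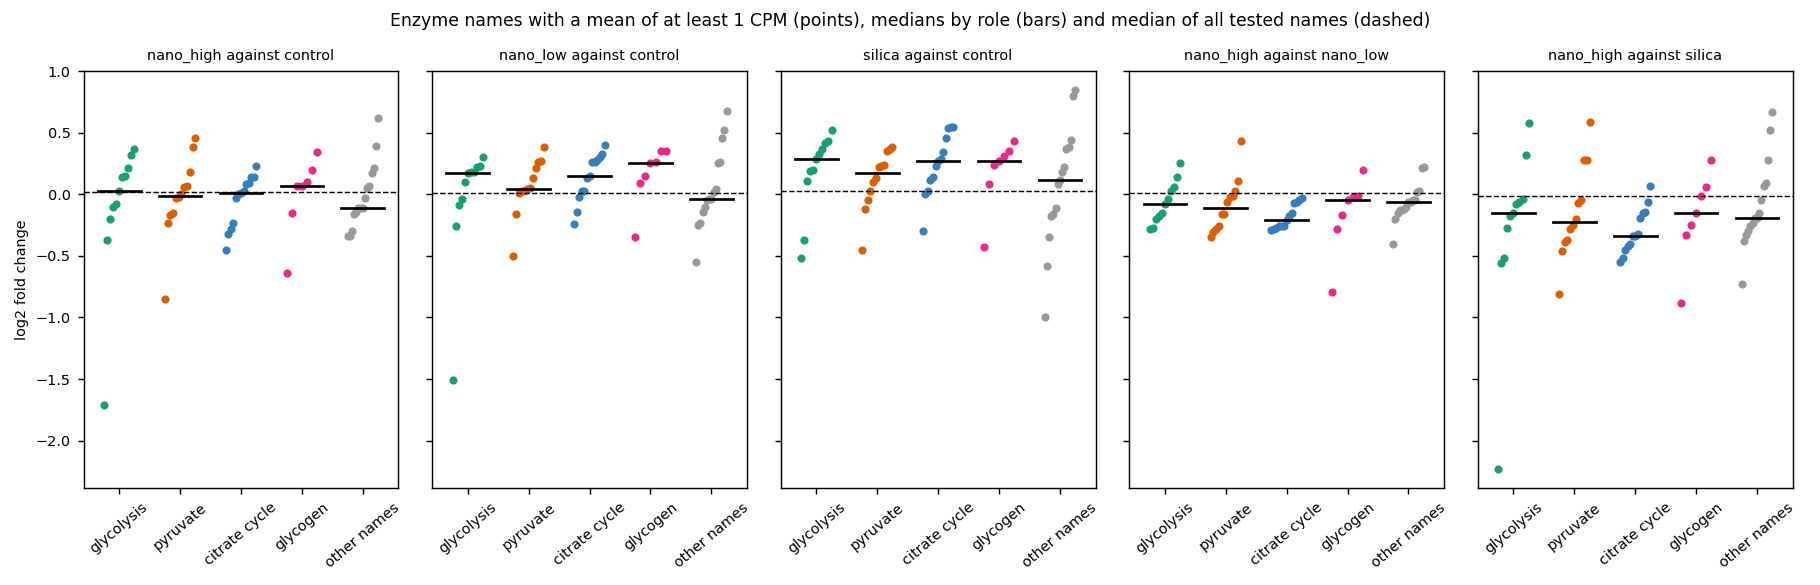
Each panel plots the log2 fold changes of 1 comparison for the enzyme names of at least 1 CPM, by role (points), with the median of each role (bars) and that of all tested names (dashed line). In silica against control most points of the 4 enzyme roles lie above 0, in nano_high against nano_low and against silica most lie below 0, and eno/arp2_g1214 lies lowest of all in the panels of nano_high against control (-1.71), nano_low against control (-1.51) and nano_high against silica (-2.23).

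Glycolysis held 1 call among 13 tested names in nano_high against control (7.69%, beside 10.1% of all names). The eno/arp2_g1214 name carries the usual symbol of enolase, the enzyme that makes phosphoenolpyruvate, and no further description. Over the 20 libraries its mean was 1.09 CPM, beside 233 CPM for phosphoglycerate mutase and 379 CPM for pyruvate kinase muscle isozyme, the steps before and after. The eno name may therefore not stand for the whole enolase step. It measured 0.724, 0.427, 0.397, 0.286 and 0.315 CPM in the nano_high libraries, 0.286, 1.03, 0.108, 0.668 and 0.262 CPM in nano_low, 1.16, 2.39, 2.17, 0.826 and 3.71 CPM in silica, and 1.34, 1.2, 2.08, 1.01 and 1.47 CPM in control. Every nano_high library lay below every silica and every control library, and the nano_low libraries overlapped with nano_high and, through nano_low 2, with control. It fell in nano_high by 1.71 on the log2 scale against control (SE 0.47, adjusted p = 0.0286, edgeR) and by 2.23 against silica (SE 0.48, adjusted p = 0.0181). In nano_low against control the log2 fold change was -1.51 (SE 0.49, adjusted p = 0.164) and in nano_high against nano_low it was -0.20 (adjusted p = 0.944). These values rest on few counts: 15.2 to 44.9 per library in nano_high, 1.05 to 40.1 in nano_low, 8.63 to 59.5 in silica and 19.1 to 57.0 in control. The call against control was lost without nano_high 2, 3 or 5 or without control 3 or 5 (adjusted p = 0.0625, 0.066, 0.0618, 0.079 and 0.0516), with a replicate block (0.0553), and without the 5 libraries at the negative end of the first component (0.136). The call against silica was lost without nano_high 5 (adjusted p = 0.0565), in a fit of those groups alone (0.0547), and without the 5 libraries (0.117), which left 3 nano_high and 5 silica libraries there.

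No other glycolytic name was called by edgeR against control in any group. Hexokinase, which phosphorylates glucose, has a pair of names. Hexokinase-1 averaged 81.2 ± 13.5 CPM in nano_high, 73.6 ± 20.2 in nano_low, 84.7 ± 9.31 in silica and 63.0 ± 14.3 in control (SD, n = 5 each), and was not called in any comparison. Hexokinase type measured 47.8, 50.2, 46.0, 49.7 and 49.9 CPM in silica, against 55.1, 59.9, 64.8, 86.8 and 83.7 CPM in control, so every silica library lay below every control library. Its log2 fold change in silica against control was -0.52 (SE 0.13) and did not pass the threshold (adjusted p = 0.0683, edgeR). DESeq2 (0.00983), a fit of those groups alone (0.046) and the fits without nano_low 1, nano_high 4 or control 1 (0.0389, 0.0298 and 0.0422) did call it. In the nano_high libraries the same name averaged 61.0 ± 10.9 CPM and in the nano_low libraries 58.5 ± 7.54 CPM.

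Fructose-bisphosphate aldolase b, which splits the phosphorylated hexose, was the glycolytic name with the highest mean, at 2453, 1635, 2380, 1334 and 1061 CPM in nano_high, 853, 2258, 1512, 2384 and 1695 CPM in nano_low, 2170, 1807, 1908, 1705 and 1534 CPM in silica and 1722, 1289, 1768, 1075 and 1228 CPM in control. The groups overlapped, and the lowest library of nano_high, nano_low and control each lay below -30 on the first component. Its log2 fold changes against control were 0.32 in nano_high, 0.30 in nano_low and 0.37 in silica (SE 0.26 each), all short of the threshold (adjusted p = 0.467, 0.617 and 0.366). The second aldolase name, fructose aldolase/arp2_g716, was at 0 in all 5 nano_low libraries and at 0.0197 to 0.0455 CPM in nano_high, 8.95 counts over that group. A count of 3 over the nano_low group would be 0.0253 CPM, so no fold is given, and the test between these groups did not pass (adjusted p = 0.662).

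Besides eno, no name of the steps from phosphofructokinase to pyruvate kinase was called by edgeR in any comparison. Triosephosphate isomerase, which interconverts the triose phosphates, averaged 222 ± 47.9 CPM in nano_high, 270 ± 74.1 in nano_low, 329 ± 42.5 in silica and 287 ± 59.2 in control. Every nano_high library of it lay below every silica library, the highest nano_high one at 288 and the lowest silica one at 291 CPM, but the test did not pass by edgeR (-0.56, SE 0.19, adjusted p = 0.076). It passed by DESeq2 (-0.55, adjusted p = 0.0382) and with the first component as a covariate (-0.30, adjusted p = 0.0428), and under that covariate it was also called in nano_high against control (-0.48, adjusted p = 0.000857). The covariate, here and below, was computed from the tested values themselves, these names included. Its fit called 1748 of all 7564 names in nano_high against control and 652 in nano_high against silica. Phosphoglycerate mutase, which moves the phosphate before enolase acts, averaged 198 ± 61.8, 239 ± 79.8, 283 ± 48.9 and 212 ± 66.3 CPM in nano_high, nano_low, silica and control, and was called under the covariate in nano_high against control (-0.27, adjusted p = 0.0441). Phosphoglycerate kinase, the ATP-making step, averaged 229 ± 66.5 CPM in nano_high, 259.5 ± 84.0 in nano_low, 276 ± 47.4 in silica and 242 ± 68.4 in control. The muscle-type 6-phosphofructokinase, the committed step of glycolysis, averaged 266 ± 55.4, 272 ± 81.5, 294 ± 48.3 and 241 ± 49.6 CPM in the same order, and pyruvate kinase muscle isozyme, the last step, 365 ± 75.8, 406 ± 101, 386 ± 63.5 and 358 ± 56.9 CPM. Pyruvate kinase/arp2_g1116 averaged less than 1 CPM and was not called either.

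Lactate dehydrogenase also has a pair of names, of which the tagged one was called in nano_high against silica. L-lactate dehydrogenase/arp2_g1395 measured 11.9, 13.4, 12.5, 17.7 and 18.3 CPM in nano_high, 10.5, 14.6, 11.8, 12.9 and 12.3 CPM in nano_low, 8.8, 8.6, 12.0, 10.2 and 10 CPM in silica, and 16.2, 15.6, 12.3, 9.5 and 10.3 CPM in control. Its highest nano_high libraries were 4 and 5, which lie at the negative end of the first component, and nano_high 1 overlapped with silica 3. It rose by 0.58 in nano_high against silica (SE 0.17, adjusted p = 0.0495, edgeR), a call that sits at the threshold and was lost under 16 of 29 alternatives, and it was not called against control (0.21, adjusted p = 0.47). L-lactate dehydrogenase a chain averaged 311 ± 110 CPM in nano_high, 329 ± 133 in nano_low, 353 ± 79.2 in silica and 280.2 ± 88.1 in control, with a log2 fold change of -0.18 in nano_high against silica (adjusted p = 0.72). The log2 ratio of the tagged name to the a chain name within a library was -4.34 ± 0.80 in nano_high and -5.13 ± 0.40 in silica, a difference of 0.79 (exact permutation test, two-sided, p = 0.103).

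The pyruvate steps held 3 calls among 12 tested names in nano_high against control, 2 higher and 1 lower (25%, beside 10.1% of all names). The mitochondrial pyruvate carrier, which brings pyruvate across the inner membrane, measured 3.52, 2.28, 2.97, 3.94 and 3.18 CPM in nano_high, 2.63, 5.02, 3.24, 5.62 and 3.68 CPM in nano_low, 7.01, 5.26, 4.76, 3.84 and 6.88 CPM in silica, and 4.87, 5.16, 6.61, 6.89 and 5.15 CPM in control. Every nano_high library lay below every control library, and silica overlapped with nano_high only through silica 4. The carrier fell in nano_high by 0.85 against control (SE 0.22, adjusted p = 0.0196, edgeR) and by 0.81 against silica (SE 0.22, adjusted p = 0.0395). In nano_low against control its log2 fold change was -0.50 (SE 0.22, adjusted p = 0.322). The call against control was lost without nano_high 2 or 3 or control 3 or 4 (adjusted p = 0.0538, 0.0508, 0.0517 and 0.0518), and that against silica under 11 of 29 alternatives.

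Pyruvate carboxylase, mitochondrial, which makes oxaloacetate for the citrate cycle and for the return to glucose, went the other way. It measured 215, 218, 227, 232 and 243 CPM in nano_high, 141, 188, 166, 197 and 149 CPM in nano_low, 169, 151, 167, 144 and 124 CPM in silica, and 162, 184, 144, 198 and 134 CPM in control. All 5 nano_high libraries were higher than all 15 others, and the other groups overlapped among themselves. It rose by 0.46 in nano_high against control (SE 0.12, adjusted p = 0.0196, edgeR) and by 0.59 against silica (SE 0.12, adjusted p = 0.0144). Against nano_low the log2 fold change was 0.43 (SE 0.12) and the adjusted p was 0.557, in a comparison in which no name of the table was called by edgeR. The call against control was lost without control 3 or control 5 (adjusted p = 0.0554 and 0.0522), and both were lost without the 5 libraries at the negative end of the first component (0.062 against control and 0.0557 against silica). Cytosolic phosphoenolpyruvate carboxykinase, the next enzyme of the return to glucose, averaged 363 ± 69.3 CPM in nano_high, 365 ± 61.8 in nano_low, 299.6 ± 20.3 in silica and 408 ± 133 in control, and was not called in any comparison.

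The pyruvate dehydrogenase complex turns pyruvate into acetyl-CoA and is switched off by phosphorylation, which phosphatases undo. Pyruvate dehydrogenase [acetyl-transferring]-phosphatase 2, mitochondrial, is one of these, and it measured 35.4, 39.8, 39.1, 40.5 and 44.5 CPM in nano_high, 39.8, 32.8, 34.4, 34.6 and 43.2 CPM in nano_low, 31.0, 36.1, 30.2, 32.1 and 35 CPM in silica, and 31.7, 28.9, 28.3, 31.2 and 33.1 CPM in control. Every nano_high library lay above every control library, and nano_low reached below the highest control library only in nano_low 2. It rose by 0.38 in nano_high against control (SE 0.09, adjusted p = 0.01, edgeR), the smallest p of the enzymes in that comparison, and the call was lost only without the 5 libraries at the negative end of the first component (0.0558). The log2 fold changes of the same name were 0.27 in nano_low against control (adjusted p = 0.155) and 0.28 in nano_high against silica (adjusted p = 0.0604).

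Phosphatase 1 of the complex was not called by edgeR in any comparison. Pyruvate dehydrogenase [acetyl-transferring]-phosphatase 1, mitochondrial, the pyruvate name with the highest mean, measured 744, 582, 729, 576 and 498 CPM in nano_high, 568, 844, 643, 796 and 648 CPM in nano_low, 925, 802, 760.2, 858 and 749 CPM in silica, and 759.5, 656, 756, 622 and 670.1 CPM in control. Every nano_high library lay below every silica library, the closest pair being 744 and 749 CPM, but the difference did not pass by edgeR (-0.39, SE 0.13, adjusted p = 0.0699) and did by DESeq2 (-0.37, adjusted p = 0.032). Scores on the first component, added as a covariate, also gave a call in nano_high against control (-0.22, adjusted p = 0.0473), where the log2 fold change without them was -0.15 (adjusted p = 0.508). The log2 ratio of phosphatase 2 to phosphatase 1 within a library was -3.96 ± 0.36 in nano_high and -4.63 ± 0.20 in silica. That difference of 0.68 had the smallest p that an exact permutation test of 5 against 5 can give (two-sided, 0.00794), and an adjusted p of 0.0694 over the 35 ratio tests made. The catalytic subunits had no call by edgeR: the e1 component subunit alpha averaged 252 ± 87.4 CPM in nano_high, 301 ± 106 in nano_low, 326 ± 68.4 in silica and 252 ± 82.6 in control, and the beta, acetyltransferase, protein x and regulatory names did not pass either. With the first component as a covariate the beta subunit was called in nano_high against control (-0.36, adjusted p = 0.00676).

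**Figure D3:**
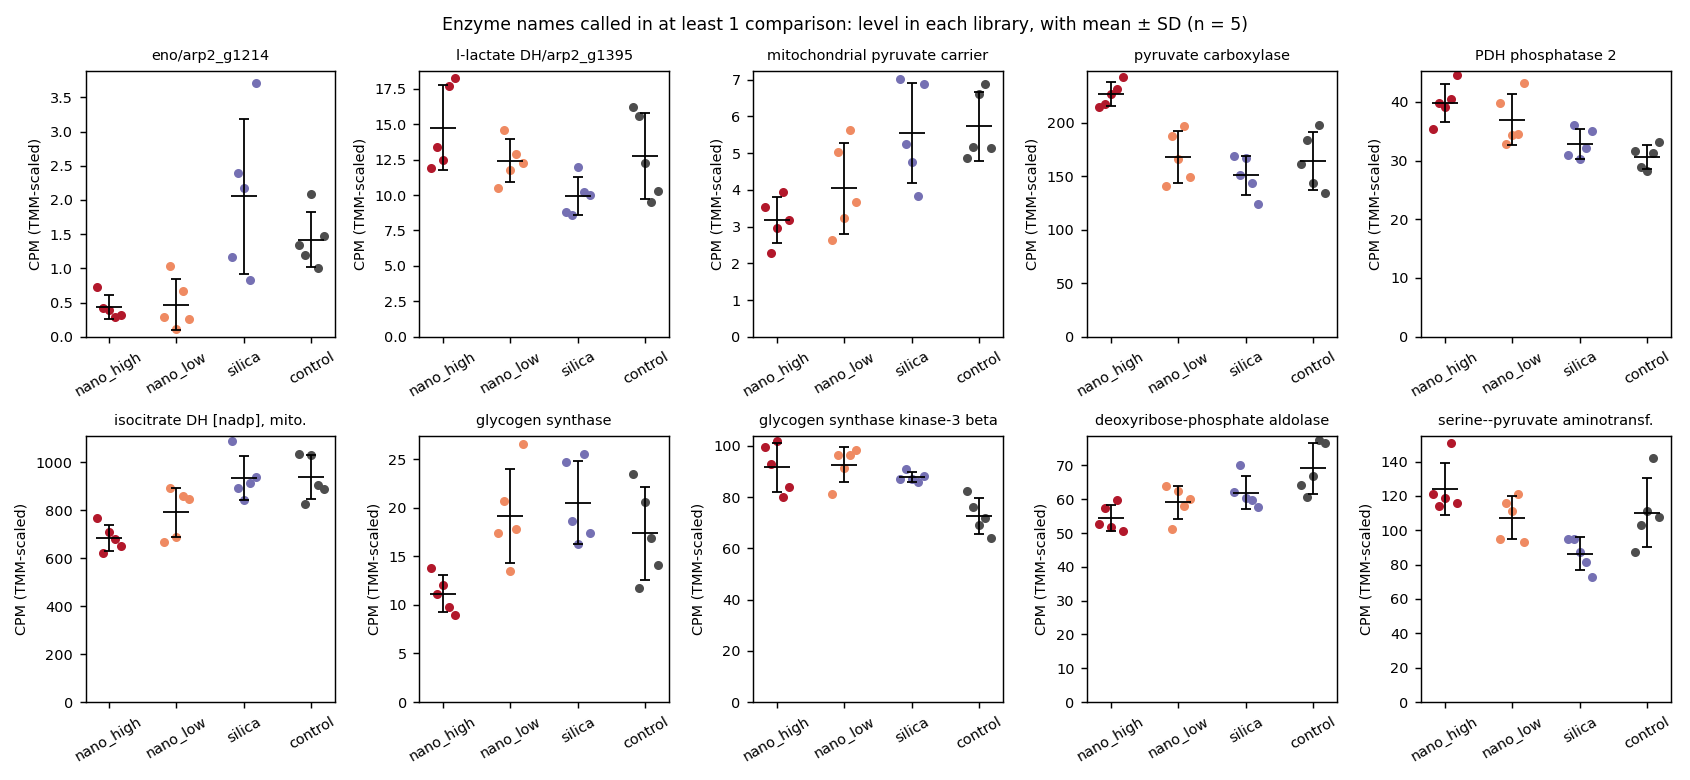
Each panel plots 1 of the 10 enzyme names called in at least 1 comparison, as CPM in each of the 20 libraries (points) with the group mean and SD (bars, n = 5). The 5 nano_high points of pyruvate carboxylase, 215 to 243 CPM, lie above all others, and those of isocitrate DH [nadp] and of the mitochondrial pyruvate carrier lie below all control points.

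In the citrate cycle 1 of 15 tested names was called in nano_high against control (6.67%, beside 10.1% of all names). Isocitrate dehydrogenase [nadp], mitochondrial, makes NADPH from isocitrate in mitochondria and was the citrate cycle name with the highest mean. It measured 765, 623, 707, 679 and 649 CPM in nano_high, 669, 890.1, 689, 857 and 848 CPM in nano_low, 1086, 893, 842, 912 and 937 CPM in silica, and 1035, 827, 1029, 905 and 887 CPM in control. Every nano_high library lay below every silica and every control library, and nano_low spanned the gap. It fell in nano_high by 0.45 against control (SE 0.10, adjusted p = 0.0101, edgeR) and by 0.45 against silica (SE 0.10, adjusted p = 0.0235). The call against control held under all 29 alternatives (adjusted p 0.000237 to 0.0475), the fit without the 5 libraries at the negative end of the first component among them, and the call against silica was lost under 6 of them. In nano_low against control the log2 fold change was -0.24 (adjusted p = 0.303), and in nano_high against nano_low it was -0.21 (adjusted p = 0.738).

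The NAD-linked isocitrate dehydrogenase, the regulated step of the cycle itself, had no called subunit. Its alpha subunit measured 245, 152, 216, 59.0 and 83.9 CPM in nano_high, 69.3, 236, 159, 241 and 203 CPM in nano_low, 259, 201, 171, 206 and 159.7 CPM in silica, and 187, 132, 235, 74.2 and 58.0 CPM in control. Its 5 lowest libraries were exactly the 5 at the negative end of the first component (58.0 to 83.9 CPM), and the next was control 2 at 132 CPM. With an SD of 0.73 it was the most variable citrate cycle name. The beta subunit was next (SD 0.63, 44.4 CPM in nano_high 4 to 178 CPM in silica 1), while the gamma 1 subunit of the same enzyme had an SD of 0.19 and ran from 116 CPM in control 4 to 192 CPM in control 3. The log2 fold changes of the 3 subunits in silica against control were 0.54 for alpha, 0.55 for beta and 0.27 for gamma 1 (adjusted p = 0.406, 0.342 and 0.173).

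No other name of the cycle was called by edgeR in any comparison. Citrate synthase 2, which condenses acetyl-CoA with oxaloacetate, averaged 331 ± 111 CPM in nano_high, 401 ± 121 in nano_low, 483 ± 83.0 in silica and 329.6 ± 103 in control. Aconitate hydratase, which turns citrate into isocitrate, averaged 628 ± 189, 699 ± 217, 781 ± 106 and 569 ± 175 CPM in the same order. Fumarate hydratase was steadier, at 239 ± 34.3, 251 ± 37.8, 266 ± 17.1 and 245 ± 28.1 CPM. Of the names of malate dehydrogenase, which returns malate to oxaloacetate, the mitochondrial one averaged 102 ± 16.8 CPM in nano_high, 122 ± 19.5 in nano_low, 136 ± 12.4 in silica and 124 ± 23.8 in control. Its log2 fold change in nano_high was -0.28 against control (adjusted p = 0.209) and -0.42 against silica (adjusted p = 0.0727), the second of which passed by DESeq2 (-0.41, adjusted p = 0.0403). With the first component as a covariate it was called in nano_high against control (-0.35, adjusted p = 0.0112), as was cytosolic malate dehydrogenase (-0.38, adjusted p = 0.0198). The cytosolic name averaged 312 ± 46.9, 353 ± 74.5, 396 ± 55.8 and 389 ± 45.5 CPM in nano_high, nano_low, silica and control. The name malate dehydrogenase, with no compartment given, averaged 68.9 ± 21.1, 82.4 ± 25.9, 87 ± 20.2 and 68.8 ± 21.9 CPM in the same order. It was level between nano_high and control and was not called there under the covariate.

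The 15 tested citrate cycle names do not cover the whole cycle, as succinate dehydrogenase was counted with the further names below. They include cytosolic malate dehydrogenase, and mitochondrial malate dehydrogenase/arp2_g4290 and nadp-specific isocitrate dehydrogenase/arp2_g774 at under 1 CPM. Of these 15, 13 log2 fold changes were positive in silica against control (median 0.29). Over all names 52.9% were positive there (median 0.03). In nano_high against nano_low 14 of 15 were negative (median -0.18, all names 0.01), where 50.8% of all names were positive. In nano_high against silica 13 of 15 were negative (median -0.34, all names -0.01), where 48.6% of all names were positive. The silica mean was the highest of the 4 groups for 11 of the 13 cycle names of at least 1 CPM, and for 36 of all 58 enzymes. That count was not made over all names, and names measured in the same libraries are not independent. No silica library lay at the negative end of the first component, and with that component as a covariate the median of all enzymes was -0.09 in silica against control in place of 0.23, and 0.03 in nano_high against silica in place of -0.19. The part of this component in the medians was not tested further.

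**Figure D4:**
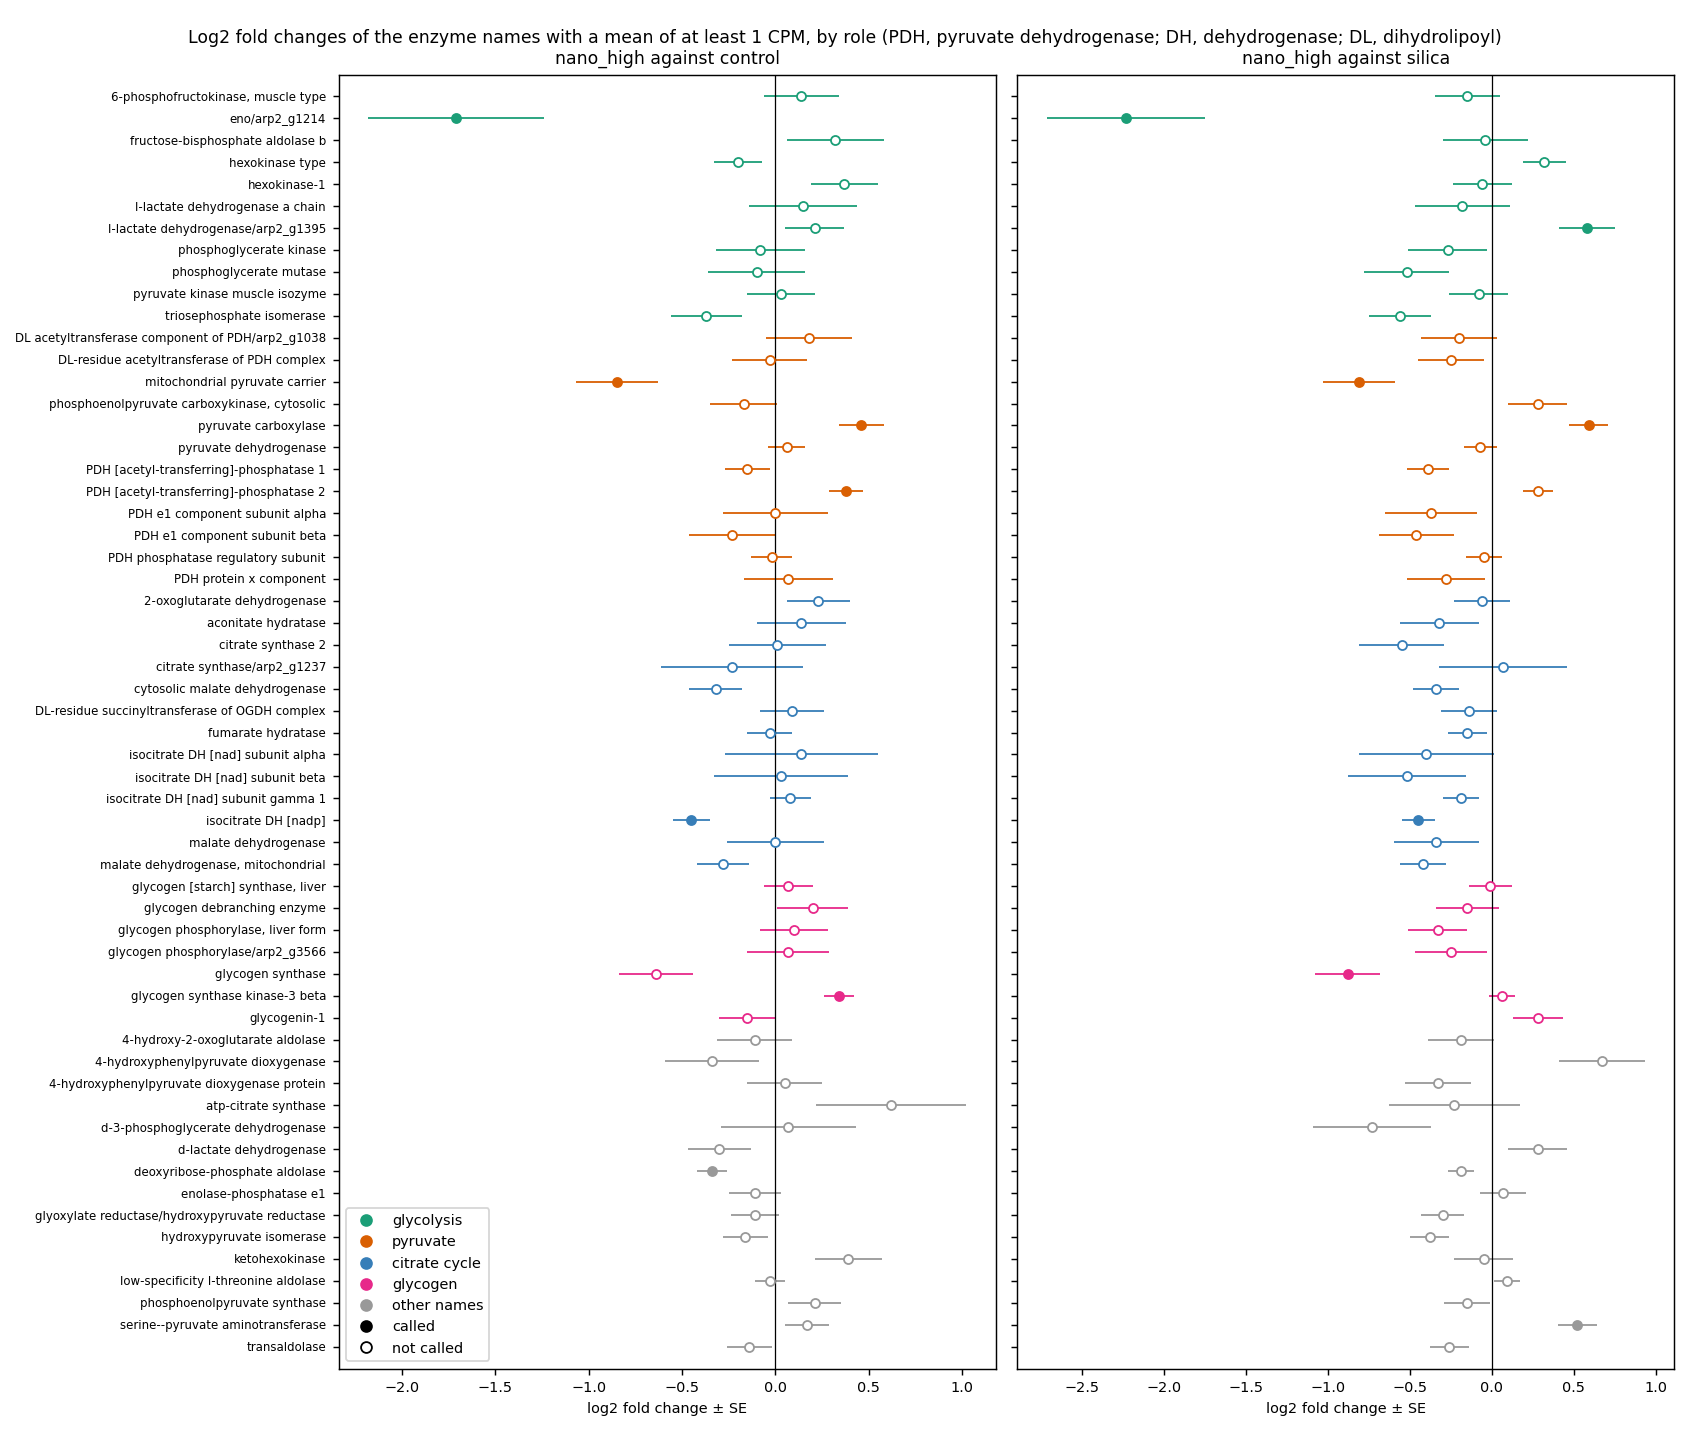
For each enzyme name of at least 1 CPM, ordered by role, the log2 fold change ± SE is plotted in nano_high against control (left) and nano_high against silica (right), filled where called. The left panel is spread about 0, and in the right panel most citrate cycle names lie to the left of 0, with isocitrate DH [nadp] called in both at -0.45.

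Glycogen held 1 call among 7 tested names in nano_high against control (14.3%, beside 10.1% of all names). Glycogen synthase kinase-3 beta, a kinase that inhibits glycogen synthase and also acts in Wnt signalling, measured 99.7, 93.0, 102, 80.2 and 83.8 CPM in nano_high, 81.2, 96.5, 91.2, 96.3 and 98.4 CPM in nano_low, 87, 90.9, 86.9, 86.0 and 88.4 CPM in silica, and 82.5, 76.2, 69.1, 71.9 and 63.9 CPM in control. All silica libraries lay above all control libraries, while nano_high 4 and nano_low 1 lay below control 1. It rose by 0.34 in nano_high against control (SE 0.08, adjusted p = 0.0162, edgeR). The call was lost in a fit of those groups alone (adjusted p = 0.0812) and without nano_high 3 (0.0502). Its log2 fold change against control was 0.35 in nano_low (SE 0.08, adjusted p = 0.0572) and 0.27 in silica (SE 0.08, adjusted p = 0.103), and in nano_high it was -0.01 against nano_low and 0.06 against silica (adjusted p = 0.975 and 0.651). DESeq2 called it in nano_low and in silica against control (adjusted p = 0.00241 and 0.0352), and limma-voom in nano_low (0.0484).

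Glycogen synthase, which adds glucose to the polymer, was lower in nano_high than in silica. It measured 13.8, 11.1, 12.0, 9.82 and 8.94 CPM in nano_high, 17.4, 20.7, 13.5, 17.8 and 26.5 CPM in nano_low, 24.7, 18.6, 16.3, 25.5 and 17.4 CPM in silica, and 23.5, 11.7, 20.6, 16.9 and 14.1 CPM in control. The nano_high and silica libraries did not overlap, nano_high 1 lay just above nano_low 3, and control 2 overlapped with nano_high 1 and nano_high 3. It fell in nano_high against silica by 0.88 (SE 0.20, adjusted p = 0.0238, edgeR), a call lost under 7 of 29 alternatives. Against control the log2 fold change was -0.64 (SE 0.20, adjusted p = 0.0509), just short of the threshold and past it by DESeq2 (0.0215) and limma-voom (0.0454). Against nano_low it was -0.79 (SE 0.20, adjusted p = 0.557).

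The other synthase name, glycogen [starch] synthase, liver, averaged 192 ± 35.1 CPM in nano_high, 195 ± 36.5 in nano_low, 194 ± 17.7 in silica and 183 ± 20.3 in control. The log2 ratio of glycogen synthase to it within a library was -4.10 ± 0.08 in nano_high (-4.21 to -4.02), -3.36 ± 0.43 in nano_low (-3.73 to -2.68), -3.25 ± 0.27 in silica (-3.60 to -2.91) and -3.43 ± 0.37 in control (-3.87 to -2.90). All nano_high libraries lay below all others on this ratio, by 0.67, 0.74 and 0.84 on average against control, nano_low and silica. Each of these differences had the smallest p that the exact permutation test can give (two-sided, 0.00794), and an adjusted p of 0.0694 over the 35 ratio tests, none of which passed. With 35 tests, 1 ratio alone at this smallest p could not have passed, and 4 stood at it. Failing to pass was thus partly set by the number of tests, and it cannot decide whether these ratios differ. The 7 pairs of names for these ratios were chosen after their values had been seen.

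Glycogen breakdown and the primer of the polymer had no call by edgeR. Glycogen phosphorylase, liver form, which releases glucose phosphate, measured 944, 687, 846, 699 and 621 CPM in nano_high, 577, 1050, 665, 1003 and 961 CPM in nano_low, 1196, 838, 871, 1074 and 808 CPM in silica, and 788, 636, 866, 540.3 and 714 CPM in control. The groups overlapped, with the lowest values in control 4 and nano_low 1. Its log2 fold change against control was 0.10 in nano_high, 0.26 in nano_low and 0.43 in silica (adjusted p = 0.783, 0.518 and 0.173). The debranching enzyme averaged 215 ± 51.6, 222 ± 65.5, 238 ± 27.9 and 187 ± 23.5 CPM in nano_high, nano_low, silica and control. Glycogenin-1 averaged 259.9 ± 71.1, 226 ± 25.3, 214 ± 19.2 and 289 ± 37.5 CPM in the same order. Every nano_low and every silica library of glycogenin-1 lay below every control library, and neither difference passed by edgeR (-0.35, adjusted p = 0.307, and -0.43, adjusted p = 0.132). The difference of silica from control passed in a fit of those groups alone (-0.44, adjusted p = 0.046). Without the 5 libraries at the negative end of the first component, glycogenin-1 was called in nano_high against control (-0.39, adjusted p = 0.0421), where the log2 fold change with all libraries was -0.15 (adjusted p = 0.574).

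Among the 15 other names, 1 was called in nano_high against control and 1 in nano_high against silica. Each is 6.67%, beside 10.1% and 5.35% of all names. Deoxyribose-phosphate aldolase, which breaks down deoxyribose phosphate from DNA, measured 52.7, 57.5, 51.8, 59.7 and 50.7 CPM in nano_high, 63.9, 51.2, 62.3, 58.0 and 60.1 CPM in nano_low, 62.1, 70.1, 60.3, 59.7 and 57.7 CPM in silica, and 64.3, 60.7, 66.8, 77.4 and 76.6 CPM in control. All nano_high libraries lay below all control libraries, and control 4 and 5, at the negative end of the first component, were the highest of all. It fell by 0.34 in nano_high against control (SE 0.08, adjusted p = 0.0162, edgeR), a call lost without the 5 libraries at that end (0.112) and in a fit of those groups alone (0.0603).

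Serine--pyruvate aminotransferase, mitochondrial, which passes amino groups between serine and pyruvate, measured 121, 114, 119, 151 and 116 CPM in nano_high, 95.2, 116, 111, 121 and 93.0 CPM in nano_low, 95.1, 94.7, 87.6, 81.5 and 72.6 CPM in silica, and 87.2, 103, 111, 142 and 108 CPM in control. The nano_high and silica libraries did not overlap, and control overlapped with each. It rose by 0.52 in nano_high against silica (SE 0.12, adjusted p = 0.0253, edgeR), and the call was lost without nano_high 4 or 5, silica 4 or 5, in a fit of those groups alone and without the 5 libraries at the negative end (adjusted p 0.0511 to 0.0708). Against control its log2 fold change in nano_high was 0.17 (adjusted p = 0.421).

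In silica against control, 4-hydroxyphenylpyruvate dioxygenase, an enzyme of tyrosine breakdown, was among the 3 names of smallest p. It measured 165, 214, 146, 328 and 207 CPM in nano_high, 286, 145, 206, 136 and 139 CPM in nano_low, 108, 124, 155, 134 and 147 CPM in silica, and 199.5, 203, 199.7, 381 and 355 CPM in control. All silica libraries lay below all control libraries, and its 4 highest libraries were at the negative end of the first component. The log2 fold change in silica against control was -1.0 (SE 0.26, adjusted p = 0.0683), which passed by DESeq2 (0.00698), in a fit of those groups alone (0.0376) and without nano_low 1, nano_high 4 or control 1 (0.033, 0.0353 and 0.0482). ATP-citrate synthase, which makes cytosolic acetyl-CoA for fat synthesis, was the most variable of the other names and the one with the highest mean. It measured 320.2, 310.0, 437, 96 and 152 CPM in nano_high, 93.9, 297, 280.3, 322 and 383 CPM in nano_low, 289, 345, 292, 339.9 and 282 CPM in silica, and 299.8, 195, 185, 91.7 and 85.1 CPM in control. Its 5 lowest libraries were again those at the negative end of the first component (85.1 to 152 CPM), and it was not called with all libraries (0.62 in nano_high, 0.68 in nano_low and 0.85 in silica against control, SE 0.40 each, adjusted p = 0.366, 0.456 and 0.212). Without those 5 libraries it was called in nano_high against control (0.65, SE 0.19, adjusted p = 0.0492).

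Further names of the same and of related pathways that the choice of words did not reach were counted beside them (34, of which 33 were tested). Among them were glyceraldehyde-3-phosphate dehydrogenase, succinate dehydrogenase, the pentose phosphate enzymes, trehalose enzymes, adenylate kinases and the AMP-activated kinase. In nano_high against control 3 fell and 0 rose, or 9.09%, near the 10.1% of all names. The 3 are not enzymes of glycolysis, the citrate cycle or glycogen. Adenylate kinase isoenzyme, which balances ATP, ADP and AMP, fell by 0.74 on the log2 scale (SE 0.15, adjusted p = 0.00578) and averaged 11.6 ± 1.49 CPM in nano_high and 19.4 ± 2.18 CPM in control. Adenylate kinase/arp2_g3562 fell by 0.76 (SE 0.19, adjusted p = 0.0181) and averaged 2.69 ± 0.403 CPM in nano_high and 4.56 ± 0.921 CPM in control. The regulatory 5'-amp-activated protein kinase subunit beta-1, part of the sensor of cell energy, fell by 0.42 against control (SE 0.12, adjusted p = 0.0364) and by 0.50 against silica (SE 0.12, adjusted p = 0.0278), at 26.1 ± 3.63 CPM in nano_high, 36.9 ± 4.30 CPM in silica and 35 ± 4.53 CPM in control. It was the one name of this list called in nano_high against silica, and none was called in the other 3 comparisons. The median log2 fold change of the list was -0.16 in nano_high, -0.06 in nano_low and 0.03 in silica, each against control, -0.16 in nano_high against nano_low and -0.27 in nano_high against silica.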

How the data were processed

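Poly-A RNA of pooled whole daphnids was sequenced with a stranded kit, per the labels' protocols. The table the authors deposited holds estimated counts (expected counts) for 7784 names, made with Salmon 0.12.0 and R 3.4.3 per the submitters' processing notes. Not given in the sources used here are its reference, its annotation and the way transcripts were joined into names. Although the table is called normalized, its totals differ as raw counts do, so the planned count test was used. No name matched the reference table, so sequences, positions and lengths are not used here.

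Names reaching 1 in 5 or more libraries were tested (7564; 220 left out). After rounding, the 4 group means were estimated from all 20 libraries together by edgeR 4.0.16 (TMM scaling, quasi-likelihood test, two-sided, Benjamini-Hochberg, threshold 0.05) in R 4.3.3. CPM use TMM-scaled totals per 1000000, and log2 CPM a prior count of 2. Alternatives were RLE scaling, no filter, a minimum of 10, DESeq2 1.42.0, limma-voom (limma 3.58.1), the compared groups alone, a replicate block, the first principal component as a covariate, leaving out the 5 libraries below -30 on it, and leaving out each library. Each ratio of a pair of names was tested with an exact permutation test. On simulated data of 7560 names for nano_high against control, 163 of 200 changed names (log2 size 1) were recovered (81.5%), with 9 false calls. Changed names were drawn only from those above a mean of 5 CPM, and each name was simulated independently, without the shared variation of the first component. The recovery does not cover names below that mean, eno/arp2_g1214 and the mitochondrial pyruvate carrier among them, or changes of smaller size. Other software was matplotlib 3.10.9, scipy 1.17.1, numpy 2.4.6 and pandas 2.3.3 under Python 3.11.15. Depth limits precision for names of few counts, and floors cover counting error only.

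Values are given for each called name, for the name of highest mean and of largest SD in each role, for the 3 of smallest p in each comparison, for eno/arp2_g1214 and for some steps with several names. Not all names of such steps are given, citrate synthase/arp2_g1237 and glycogen phosphorylase/arp2_g3566 among those left out. Others were added after their values were seen. The names and lists were chosen with earlier results of these data known.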

Additional observations from a re-analysis of the deposited data

Results flagged for a closer look

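In 72 groups of 5 libraries (18 named enzymes in 4 groups), 1 library stood apart from the rest of its group by Dixon's criterion, where the gap to the nearest library is set against the whole range. Serine--pyruvate aminotransferase, mitochondrial, was at 151 CPM in nano_high 4, with the nearest nano_high library at 121 CPM and the lowest at 114 CPM. The gap was 0.809 of the range, above the critical value of 0.71. Chance flags about 5% of such groups. Without that library the call in nano_high against silica was lost (adjusted p = 0.058, edgeR).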

How the results depend on the processing

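No called enzyme, and none of the 3 of smallest p in a comparison, changed direction in that comparison under the alternatives run. In nano_high against control the count of 7 called enzymes became 15 of 62 (3 higher, 12 lower) with scores on the first principal component as a covariate. That fit called 1748 of all 7564 names there (875 higher, 873 lower). Triosephosphate isomerase (-0.48, adjusted p = 0.000857) and pyruvate dehydrogenase e1 subunit beta (-0.36, 0.00676) were among the enzymes added. The count was 5 without the 5 libraries at the negative end of that component, beside 617 of all names. Leaving out 1 library gave 4 to 8, the lowest without nano_high 3 or control 3. In nano_low against control the count of 0 became 1 with DESeq2, 1 with limma-voom and 3 with the component as a covariate, and 0 to 1 without 1 library. In silica against control the count of 0 became 4 with DESeq2 and 4 in a fit of those groups alone, and 0 to 2 without 1 library. In nano_high against nano_low it stayed at 0 (0 to 0 without 1 library). In nano_high against silica the count of 7 (405 of all names) became 12 with DESeq2 (919), 1 in a fit of those groups alone (36) and 0 without the 5 libraries (38). Leaving out 1 library gave 1 to 11. The count was 1 without nano_high 5 (77 of all names), 2 without nano_high 4 (148) and 3 without nano_high 2 or silica 1 (112 and 90). It was 4 without silica 4 or 5 (115 and 180) and 11 without nano_high 1 (652). The count of all names thus moved widely in these fits too. The cause of these shifts was not tested. With the replicate block the counts were 6, 0, 0, 0 and 5 in the order of comparisons above. The libraries share only a number: 7 of 30 correlations between same-numbered libraries were over 0.1 (-0.636 to 0.65, median 0.013), and in 5 of 30 the own number correlated best. In no pair of groups were all 5 over 0.1, though between nano_high and control 4 of 5 were (0.479, 0.427, 0.65 and 0.169, with -0.0436 for number 2). The count of all called names moved by over 1.5 times in nano_high against control (761; 1152 with DESeq2, 380 with those groups alone, 1748 with the covariate, 413 to 967 without 1 library), nano_low against control (47; 227 with DESeq2, 71 with limma-voom, 3, 187, and 13 with the block, 8 to 236), silica against control (53; 399, 373 with those groups alone, 0 with the covariate, 0 with the block and 0 without the 5 libraries, 0 to 210), nano_high against nano_low (0; 4 with DESeq2) and nano_high against silica (405; 919, 36, 652, 267 with the block, 38 without the 5 libraries, 77 to 652). The enzymes' median log2 fold change stayed between -0.10 and 0.10, -0.05 and 0.20, -0.09 and 0.29, -0.18 and -0.04, and -0.25 and 0.03 in the same order of comparisons. Depth limits the names of few counts, among them eno/arp2_g1214 and the 4 tested at under 1 CPM.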
